A study of Mus musculus with 6 samples.

Results

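The 10 genes described here carry polyamine metabolism: Odc1, Amd1, Srm and Sms of synthesis, Sat1, Smox and Paox of acetylation and oxidation, and the antizymes Oaz1 and Oaz2 with the antizyme inhibitor Azin1. They were taken by name, for their role in the pathway, out of 17680 gene symbols measured, and all 10 were found. The mice were wild-type C57BL/6 at an age of 6 to 8 weeks. They received LPS (lipopolysaccharide, from the outer membrane of Gram-negative bacteria and used to model sepsis) or PBS (Control) into the peritoneum, and RNA of whole kidney was sequenced after 24 h. There were 3 mice and 3 libraries in each group, and both groups carried no genetic change. The labels do not state the LPS dose, the sex of the mice or the piece of kidney taken. The question of the comparison, from the design text of the series, was which RNAs differ in a kidney injured in this way.

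Polyamines are small positively charged molecules that bind RNA and DNA and that growing cells need. Ornithine decarboxylase turns ornithine into putrescine, and spermidine synthase and spermine synthase then add aminopropyl groups that come from S-adenosylmethionine. The return path runs through acetylation, oxidation and export. Antizymes bind ornithine decarboxylase and send it to the proteasome without ubiquitin, and they also slow polyamine uptake. In the mouse kidney, Odc1 is a gene of the proximal tubule that responds to androgens.

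In LPS kidneys the RNA of Odc1 and Sms was lower and that of Sat1, Smox and Srm higher, each by more than 2-fold. Amd1 and Azin1 were higher and Oaz1 and Oaz2 lower by smaller amounts, and Paox did not pass the test. So 5 of the 10 genes rose and 4 fell (edgeR, quasi-likelihood F test, with p adjusted by Benjamini-Hochberg over 14219 genes and a threshold of 0.05). Over all genes tested 50.5% passed in either direction, 25.7% higher and 24.8% lower. The median log2 fold change of the 10 genes was 0.41, against 0.01 over all genes tested, and their values ran from -1.23 to 2.02. At least 2-fold changes past the threshold were found for 5 of the 10, where 17.9% of all genes had them. The list was chosen with earlier results of these data known, so the comparison with all genes is a description and not a test. In bulk RNA, fewer cells of a type and less RNA per cell cannot be told apart.

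**Figure D1:**
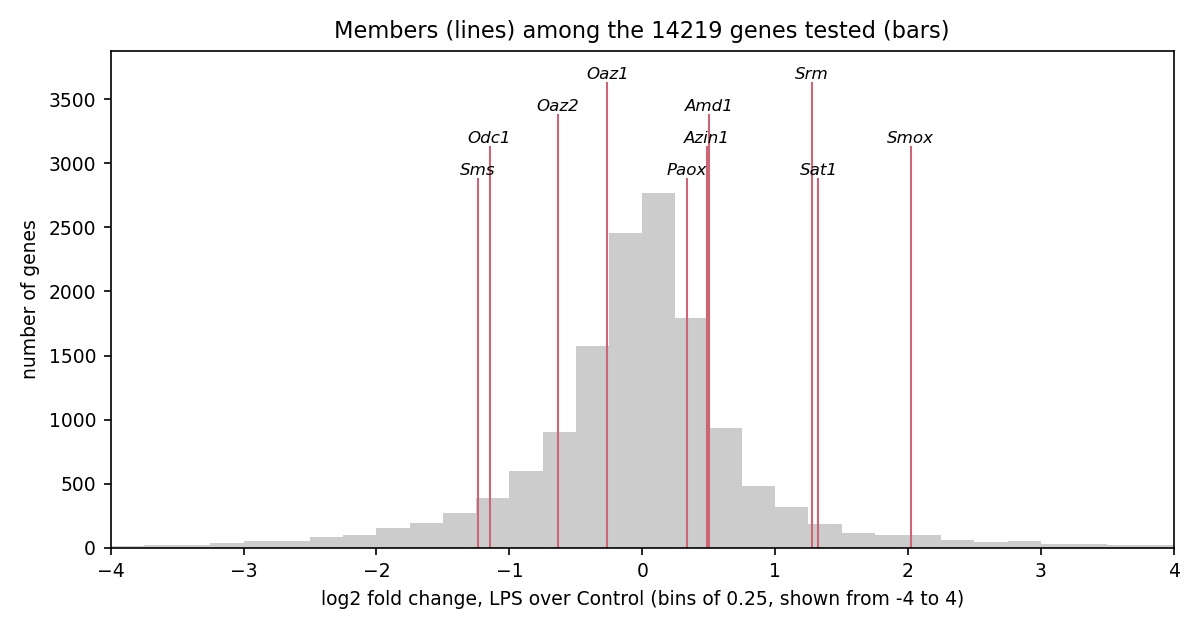
Bars count the 14219 genes tested by their log2 fold change, LPS over Control, in bins of 0.25 shown from -4 to 4, and each line marks a polyamine gene. Sms (-1.23) and Odc1 (-1.15) lie on the lower side, and Srm (1.28), Sat1 (1.33) and Smox (2.02) on the higher side.

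Levels are given as FPKM, a count scaled by gene length and library total, so that genes can be set beside each other. The lengths behind these values ran from 1075 bases for Oaz1 to 9322 for Paox, and the order of the genes depends on them. In Control kidneys the means of the 10 genes spanned 450-fold, from Paox at 0.770 FPKM to Odc1 at 347 FPKM. The order there was Odc1, Oaz1, Sat1, Oaz2, Azin1, Amd1, Srm, Sms, Smox and Paox, and the libraries of Odc1 and Oaz1, and those of Azin1 and Amd1, overlapped. In LPS kidneys the order was Sat1, Oaz1, Odc1, Oaz2, Srm, Azin1, Amd1, Sms, Smox and Paox. There the libraries of Srm and Azin1, of Azin1 and Amd1, and of Sms and Smox overlapped, and all other neighbours in the order were apart. Sat1 thus moved from the third to the first place and Odc1 from the first to the third.

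**Figure D2:**
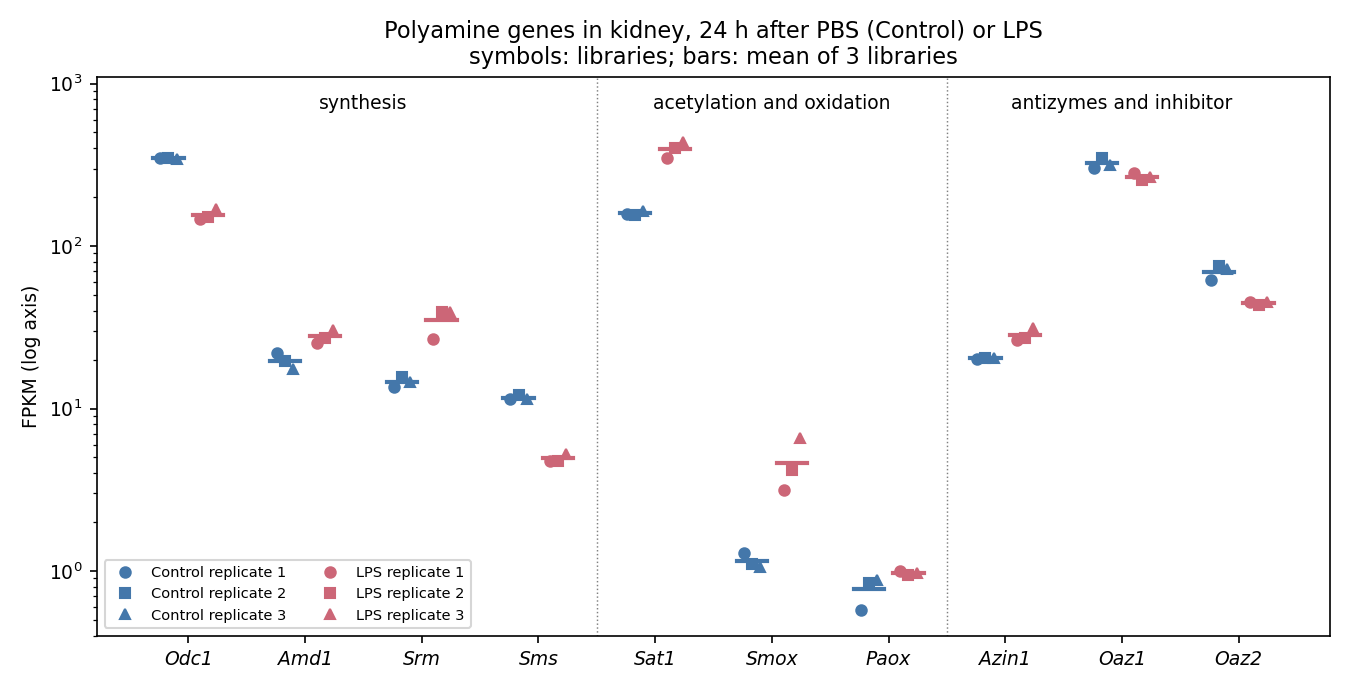
The y axis gives FPKM on a log axis for each gene, with 1 symbol per library and a bar at the mean of 3 libraries, Control in blue and LPS in red. Odc1 sits between 344 and 349 FPKM in Control and between 147 and 168 FPKM in LPS kidneys, while Sat1 goes from between 155 and 164 to between 347 and 439 FPKM.

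Odc1 encodes ornithine decarboxylase, the first and usually limiting enzyme of the pathway. Its level was 347, 349 and 344 FPKM in Control replicates 1, 2 and 3 and 147, 151 and 168 FPKM in LPS replicates 1, 2 and 3. The Control libraries lay within 5 FPKM of each other, and all 3 LPS libraries were far below them. Odc1 fell by 1.15 on the log2 scale (SE 0.08, adjusted p = 7.44e-06), which is 2.22-fold lower.

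The RNAs for the next steps of synthesis went in different directions. Srm encodes spermidine synthase, which makes spermidine from putrescine. It stood at 13.5, 15.6 and 14.5 FPKM in the Control libraries and at 26.6, 39.3 and 39.2 FPKM in the LPS libraries. LPS replicate 1 was the lowest of the LPS libraries and still above every Control library, and Srm rose by a log2 fold change of 1.28 (SE 0.16, adjusted p = 0.000172). Sms encodes spermine synthase, which makes spermine from spermidine. It stood at 11.5, 12.1 and 11.5 FPKM in Control and at 4.78, 4.76 and 5.26 FPKM in LPS kidneys. The LPS libraries were close together and below every Control library, and Sms fell by 1.23 on the log2 scale (SE 0.08, adjusted p = 4.99e-06).

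Amd1 encodes S-adenosylmethionine decarboxylase, the source of the aminopropyl groups for both synthases. It stood at 22.1, 19.5 and 17.5 FPKM in Control and at 25.5, 27.3 and 30.5 FPKM in LPS kidneys. The groups did not overlap, and Amd1 rose by a log2 fold change of 0.51 (SE 0.10, adjusted p = 0.00283). Its close copy Amd2 held between 0.194 and 0.302 FPKM in Control and between 0.269 and 0.426 FPKM in LPS libraries, with overlap, and did not pass (log2 fold change 0.45, SE 0.35, adjusted p = 0.312). Reads of Amd1 and Amd2, and of 5 pseudogenes named after Amd in the GENCODE M21 annotation, can be split between copies, so the values of both genes are uncertain to that extent. The same holds for Oaz1, Oaz2 and Sms, which have 1 such pseudogene each.

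On the return path, Sat1 encodes spermidine/spermine N1-acetyltransferase, which acetylates both polyamines and so marks them for oxidation or export. Its level was 158, 155 and 164 FPKM in Control and 347, 401 and 439 FPKM in LPS kidneys. Every LPS library was more than 2 times as high as the highest Control library, and Sat1 rose by a log2 fold change of 1.33 (SE 0.10, adjusted p = 9.82e-06). Of the 10 genes it had the highest mean in LPS kidneys, at 396 ± 46.3 FPKM (SD, n = 3).

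Odc1 and Sat1 are the most abundant enzymes of the list and changed in opposite directions, and the DNA upstream of both is shown for that reason. The sequences are those of the RefSeq promoter windows of GRCm38.p6, printed 5′ to 3′ on the strand of the gene and ended before the first annotated start in GENCODE M21. Capitals mark GC boxes, the letters GGGCGG or their reverse complement CCGCCC. The Odc1 stretch is chr12:17544623-17544793 on the plus strand (171 bases) and the Sat1 stretch is chrX:155216450-155216699 on the minus strand (250 bases).
Odc1: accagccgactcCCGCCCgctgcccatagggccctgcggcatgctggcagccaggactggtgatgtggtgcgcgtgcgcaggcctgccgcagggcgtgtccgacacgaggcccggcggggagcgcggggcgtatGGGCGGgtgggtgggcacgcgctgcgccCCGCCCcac
Sat1: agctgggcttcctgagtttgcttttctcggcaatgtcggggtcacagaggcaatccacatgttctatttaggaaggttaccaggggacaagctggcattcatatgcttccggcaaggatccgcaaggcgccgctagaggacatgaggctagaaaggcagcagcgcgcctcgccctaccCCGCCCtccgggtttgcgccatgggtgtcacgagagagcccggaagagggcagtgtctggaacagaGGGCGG
The Odc1 stretch held 3 GC boxes and the Sat1 stretch 2. Promoter windows of 300 bases were found for 8 of the 10 genes, 10 windows in all, and Srm and Azin1 are named only. GGGCGG was in 8 of these 10 windows, on either strand, and in 35.7% of all 32851 windows of the table. The 8 are windows and not genes, and Paox is among them more than once. The E-box CACGTG, the letters that Myc with Max is known to bind, was in 1 of the 10, a window of Sms, and in 7.15% of all windows. The letters TATGACTAA, described for the human SAT1 gene as a polyamine-responsive element, were in 0 of the 10 and in 0.0974% of all windows. The AP-1 letters TGANTCA (7.81% of all windows), the STAT letters TTCCNGGAA (1.15%) and a kappa B consensus (0.155%) were also in 0 of the 10. All were searched on both strands. A match describes letters in a window and not a bound site, and other parts of these genes were not searched.

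Smox encodes spermine oxidase, which turns spermine back into spermidine and releases hydrogen peroxide. It was low in Control kidneys, at 1.30, 1.11 and 1.06 FPKM, and stood at 3.16, 4.18 and 6.55 FPKM in LPS kidneys. The LPS libraries spread more than the Control libraries and did not overlap with Control, and Smox rose by a log2 fold change of 2.02 (SE 0.25, adjusted p = 0.000179), the largest change among the 10 genes. On the log2(FPKM + 1) scale, which shrinks changes of low genes, the value was 1.34.

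Paox encodes the peroxisomal oxidase that acts on acetylated polyamines, the step after Sat1. It stood at 0.579, 0.849 and 0.883 FPKM in Control and at 1.00, 0.943 and 0.966 FPKM in LPS kidneys. The LPS libraries were just above the Control libraries, and Control replicate 1 stood apart as the lowest. The log2 fold change of 0.34 (SE 0.19) did not pass (adjusted p = 0.162), and without Control replicate 1 it was 0.15. In GENCODE M21, exons of Paox share 142 bases with exons of Echs1 on the opposite strand. No label states the strand setting of the counting, so reads of the 2 genes cannot be told apart there. Echs1, an enzyme of fatty acid oxidation, stood at 159, 179 and 177 FPKM in Control and at 119, 126 and 138 FPKM in LPS kidneys. Its log2 fold change was -0.42 (SE 0.10, adjusted p = 0.00598). Whether reads of Echs1 entered the Paox values was not tested.

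Antizymes are made only when the ribosome slips forward by 1 base while it reads their RNA, a step that polyamines are known to favour, so RNA levels do not show how much antizyme is made. The slip site of Oaz1 and of Oaz2 is shown because it is the feature the RNA count leaves out. Both stretches are 60 bases of coding sequence from GENCODE M21 transcripts (GRCm38, plus strand), at chr10:80828272-80828331 for Oaz1 and chr9:65686249-65686308 for Oaz2. Capitals mark the codon before the stop, the stop codon TGA of the first reading frame and the base after it.
Oaz1: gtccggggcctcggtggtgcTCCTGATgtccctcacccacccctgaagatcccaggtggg
Oaz2: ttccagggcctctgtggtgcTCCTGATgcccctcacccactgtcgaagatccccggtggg
The stretches were identical at 51 of 60 positions, with the letters in capitals the same in both. The annotated coding sequences of both genes leave out 1 base at this place, the T of the stop codon.

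The RNA of both antizymes was lower in LPS kidneys and that of their inhibitor higher. Oaz2 stood at 61.8, 74.9 and 71.9 FPKM in Control and at 45.0, 43.2 and 45.4 FPKM in LPS kidneys. The LPS libraries lay close together and below every Control library, and Oaz2 fell by 0.63 on the log2 scale (SE 0.10, adjusted p = 0.000659). Oaz1, the more abundant antizyme, stood at 304, 350 and 315 FPKM in Control and at 282, 255 and 266 FPKM in LPS kidneys. The groups did not overlap but lay near each other, and Oaz1 fell by 0.26 on the log2 scale (SE 0.09, adjusted p = 0.0310). That call was lost when Control replicate 2 or 3 was left out (adjusted p = 0.137 and 0.0714), when LPS replicate 2 or 3 was (0.110 and 0.0665), and with the replicate block (0.0629). Over all alternatives its adjusted p ranged from 0.0133 to 0.137.

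Azin1 encodes antizyme inhibitor 1, a relative of ornithine decarboxylase that has no decarboxylase activity and binds antizyme in its place. It stood at 20.2, 20.6 and 20.3 FPKM in Control and at 26.5, 27.3 and 31.3 FPKM in LPS kidneys. All LPS libraries were above the narrow range of Control, and Azin1 rose by a log2 fold change of 0.49 (SE 0.09, adjusted p = 0.00175). GENCODE M21 has an antisense gene whose exons share 358 bases with those of Azin1, with the same limit from the strand setting.

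Ratios within a library do not depend on its total count, and they are given as descriptions with no test. The ratio of Sat1 to Odc1 in FPKM was 0.456, 0.444 and 0.475 in the Control libraries and 2.36, 2.66 and 2.61 in the LPS libraries. Sat1 was thus below Odc1 in every Control library and above it in every LPS library, and the mean ratio was 5.55 times as high in LPS kidneys. The ratio of Srm to Sms went from 1.24 ± 0.0567 to 7.10 ± 1.38 (SD, n = 3 per group), with LPS replicate 1 the lowest of its group at 5.57. By FPKM, the RNA of Srm and that of Sms were therefore near each other in Control kidneys and far apart in LPS kidneys. That nearness rests on gene lengths of 1328 bases for Srm and 3798 for Sms. In raw counts summed per group, Srm had 1756 and Sms 4032 in Control, and Srm had 4518 and Sms 1816 in LPS kidneys.

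Summed over the 4 synthesis genes, the level was 393 ± 4.46 FPKM in Control and 223 ± 19.6 FPKM in LPS kidneys (SD, n = 3 per group). Odc1 makes up most of this sum, and without it the sum of Amd1, Srm and Sms was 46.0 ± 2.10 FPKM in Control and 67.7 ± 9.54 FPKM in LPS kidneys. The direction of a sum over synthesis genes hence depends on Odc1. The sum of Sat1, Smox and Paox, nearly all of it Sat1, went from 161 ± 4.36 to 401 ± 47.9 FPKM.

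Against the antizymes, Odc1 stood at a ratio of 0.887 ± 0.0639 to Oaz1 plus Oaz2 in Control and 0.498 ± 0.0459 in LPS kidneys. The ratio of Azin1 to the same sum was 0.0521 ± 0.00345 in Control and 0.0910 ± 0.00967 in LPS kidneys. So Odc1 fell further than the antizymes did, and by FPKM Azin1 stayed a small fraction of the antizyme level in both groups. That fraction rests on gene lengths of 9176 bases for Azin1, 1075 for Oaz1 and 1844 for Oaz2. In raw counts summed per group, Azin1 had 16984 in Control and 25225 in LPS kidneys. Oaz1 had 31588 and 27920, and Oaz2 had 11664 and 7965. The ratio of Smox to Paox was 2.24, 1.30 and 1.20 in Control and 3.16, 4.43 and 6.78 in LPS libraries, which puts Control replicate 1 nearest to the LPS range.

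**Figure D3:**
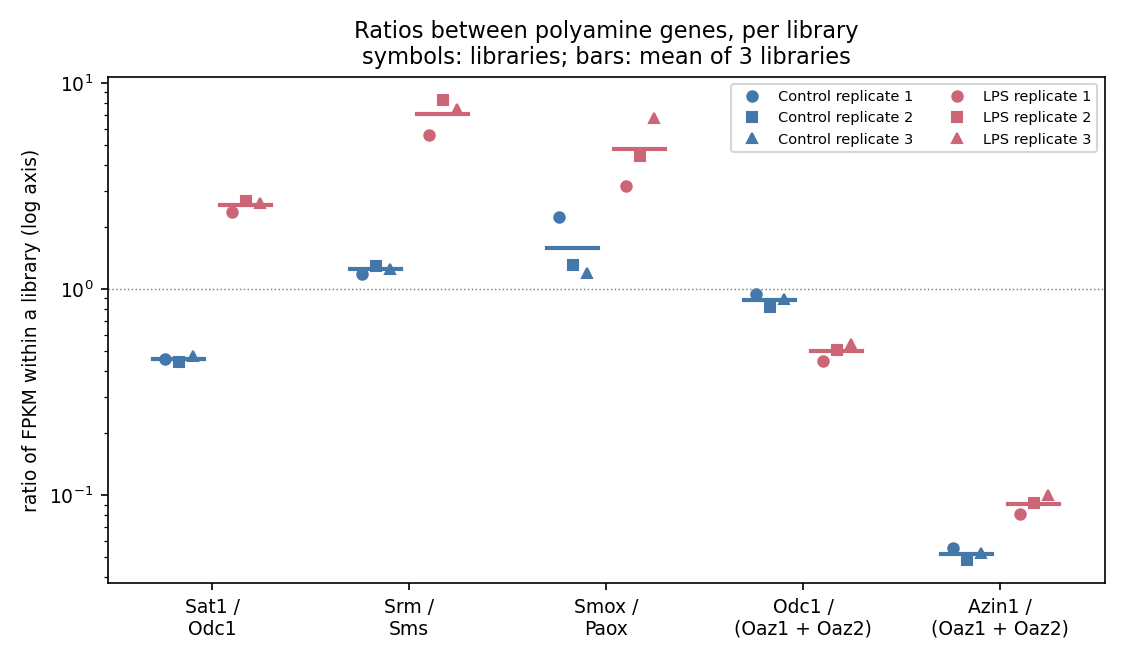
The y axis gives the ratio of 2 FPKM values, or of 1 value to a sum, within each library on a log axis, with 1 symbol per library and a bar at the mean of 3. The Sat1 to Odc1 ratio lies between 0.444 and 0.475 in Control and between 2.36 and 2.66 in LPS libraries, and none of the 5 ratios overlaps between the groups.

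The members also varied among mice of each group. LPS replicate 1 was the lowest LPS library for 6 of the 10 genes, Odc1, Amd1, Srm, Sat1, Smox and Azin1, and LPS replicate 3 was the highest for 7. In Control, replicate 1 was the lowest library for 6 of the 10 genes and replicate 2 the highest for 6. How often each library is lowest or highest over all genes was not counted. The FPKM ranges of the groups did not overlap for any of the 10 genes, Paox included, where 60.1% of all genes tested had no overlap. LPS replicate 2 held 3.66% of its counts in 9 listed seminal vesicle genes, against at most 0.00457% in each other library. Without it the log2 fold change was -1.13 for Odc1, 1.32 for Sat1, 1.19 for Srm and 2.09 for Smox, and all 4 still passed. Oaz1 lost its call in that run (log2 fold change -0.23, adjusted p = 0.110).

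The genes around the pathway were set out in 7 lists by role, 43 genes in all. Of these 37 were tested, and 14 were higher, 10 lower and 13 did not pass, beside 50.5% of all genes that passed. The median log2 fold change over the 37 was 0.09. The counts per list that follow stand beside 25.7% of all genes tested higher and 24.8% lower.

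Relatives of the polyamine enzymes were lower or did not pass. Of 4 tested paralogues 0 rose and 3 fell, beside 25.7% and 24.8% of all genes tested. Ldc1, an ornithine decarboxylase relative that acts on leucine, stood between 18.1 and 24.4 FPKM in Control and between 0.186 and 0.470 FPKM in LPS libraries, a log2 fold change of -5.86 (SE 0.23, adjusted p = 2.57e-07), or -4.03 on log2(FPKM + 1). Sat2, a relative of Sat1 known to act on thialysine, fell by 1.30 (SE 0.14, adjusted p = 9.20e-05), from 9.84 ± 0.744 to 3.98 ± 0.519 FPKM. Azin2, the second antizyme inhibitor, fell by 0.70 (SE 0.19, adjusted p = 0.0133), a call that was lost without Control replicate 2 (adjusted p = 0.0623). So Sat1 and Sat2, and Azin1 and Azin2, went in opposite directions. Oaz3 had 0 counts in LPS libraries and 1 in Control libraries and was not tested, and Satl1 was not among the 17680 gene symbols.

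Ornithine comes from arginine, and the arginases that make it were higher. Of 8 tested genes of ornithine supply 4 rose and 2 fell. Arg2, the mitochondrial arginase of the kidney, stood at 6.74, 4.95 and 4.54 FPKM in Control and at 108, 138 and 151 FPKM in LPS kidneys. Every LPS library was at least 10 times as high as any Control library, and the log2 fold change was 4.63 (SE 0.18, adjusted p = 2.53e-07). Arg1, the cytosolic arginase, rose by a log2 fold change of 4.64 (SE 0.40, adjusted p = 2.03e-05) but stayed at 2.09 ± 0.214 FPKM in LPS kidneys. It had 11 counts over the Control libraries, and its value was 1.51 on log2(FPKM + 1) and 3.62 on log2(FPKM + 0.1).

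Other genes of ornithine supply and use moved in both directions. Gatm, the amidinotransferase that releases ornithine while making the precursor of creatine, fell from 300 ± 42.3 to 24.7 ± 7.08 FPKM (adjusted p = 1.63e-06). Agmat, annotated as the enzyme that makes putrescine from agmatine, fell from 1.74 ± 0.240 to 0.423 ± 0.144 FPKM (log2 fold change -2.02, or -0.94 on log2(FPKM + 1), adjusted p = 0.000952). The arginine carrier Slc7a1 rose by a log2 fold change of 0.76 (SE 0.20, adjusted p = 0.0120), and its call was lost without Control replicate 2 (adjusted p = 0.0518). Oat, which turns ornithine towards glutamate and proline, had a log2 fold change of 0.23 (SE 0.08, adjusted p = 0.0498), and 13 of 17 alternatives ended that call, with adjusted p-values up to 0.121. The mitochondrial ornithine carrier Slc25a15 stood at 51.1 ± 0.631 and 53.3 ± 4.18 FPKM and did not pass (adjusted p = 0.519). Otc and Slc25a2 were too low to be tested.

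Of 7 tested genes that supply S-adenosylmethionine or recycle its by-product 2 rose and 1 fell. Mat2a, the methionine adenosyltransferase of most tissues, stood at 142 ± 16.9 FPKM in Control and 137 ± 3.00 FPKM in LPS kidneys and did not pass (adjusted p = 0.735), while its regulatory subunit Mat2b fell by 0.36 (SE 0.08, adjusted p = 0.00531). In the salvage of methylthioadenosine, the by-product of both synthases, Mri1 rose by a log2 fold change of 0.87 (SE 0.11, adjusted p = 0.000195). Mtap, the enzyme that opens this salvage, stood at 14.2 ± 0.948 and 14.9 ± 0.218 FPKM and did not pass (adjusted p = 0.337). Enoph1 had a log2 fold change of 0.43 (SE 0.13, adjusted p = 0.0234), lost without LPS replicate 2 or 3 or Control replicate 2 or 3, with adjusted p-values of 0.0641, 0.0730, 0.0745 and 0.0709.

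Spermidine is also the donor for hypusine, a modified amino acid found in the translation factor eIF5A. Of 4 tested genes 2 rose and 0 fell. Eif5a, which encodes that factor, rose from a mean of 245 to one of 324 FPKM (log2 fold change 0.42, SE 0.09, adjusted p = 0.00445). Dhps, which starts the modification, had a log2 fold change of 0.27 (SE 0.10, adjusted p = 0.0477), and 11 of 17 alternatives ended that call. Dohh, which completes it, did not pass (0.10, adjusted p = 0.355).

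Oxidases of diamines and acetylated diamines were higher. Aoc1, the secreted diamine oxidase, stood at 4.10, 1.67 and 2.11 FPKM in Control and at 8.52, 7.16 and 6.37 FPKM in LPS kidneys. The groups did not overlap, and Aoc1 was 2.84-fold higher (SE 0.28 on the log2 scale, adjusted p = 0.00184). Maob, a monoamine oxidase that also acts on acetylated putrescine, rose by 1.22 (SE 0.19, adjusted p = 0.000710). Aldh9a1, a dehydrogenase of the resulting aldehydes, fell from 234 ± 8.27 to 112 ± 9.44 FPKM (adjusted p = 1.85e-05).

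Of 8 tested genes linked to polyamine transport 3 rose and 3 fell. Among organic cation carriers of the tubule, Slc47a1 fell by 1.92 (SE 0.11, adjusted p = 1.75e-06) and Slc22a2 by 1.45 (SE 0.09, adjusted p = 3.56e-06). Slc3a2, a subunit of amino acid exchangers that has been linked to export of acetylated polyamines, stood at 14.8, 18.0 and 15.8 FPKM in Control and at 28.1, 32.5 and 37.7 FPKM in LPS kidneys. No LPS library overlapped with Control there, and the log2 fold change was 1.03 (SE 0.13, adjusted p = 0.000216). Atp13a3, a membrane pump of polyamines, rose by 0.53 (SE 0.09, adjusted p = 0.00107), and Slc22a3 rose by 1.64 (SE 0.30, adjusted p = 0.00187) from a low level of 0.457 ± 0.167 FPKM, with a value of 0.73 on log2(FPKM + 1).

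Myc encodes a transcription factor for which Odc1 is a textbook target. It stood at 2.79, 2.40 and 2.90 FPKM in Control and at 17.4, 15.8 and 15.4 FPKM in LPS kidneys. Myc rose by a log2 fold change of 2.60 (SE 0.10, adjusted p = 2.60e-07) in the libraries in which Odc1 was lower. Its partner Max did not pass (0.18, SE 0.09, adjusted p = 0.128) except without LPS replicate 1 (0.26, adjusted p = 0.0160), nor did Mycn (-0.14, adjusted p = 0.713).

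**Figure D4:**
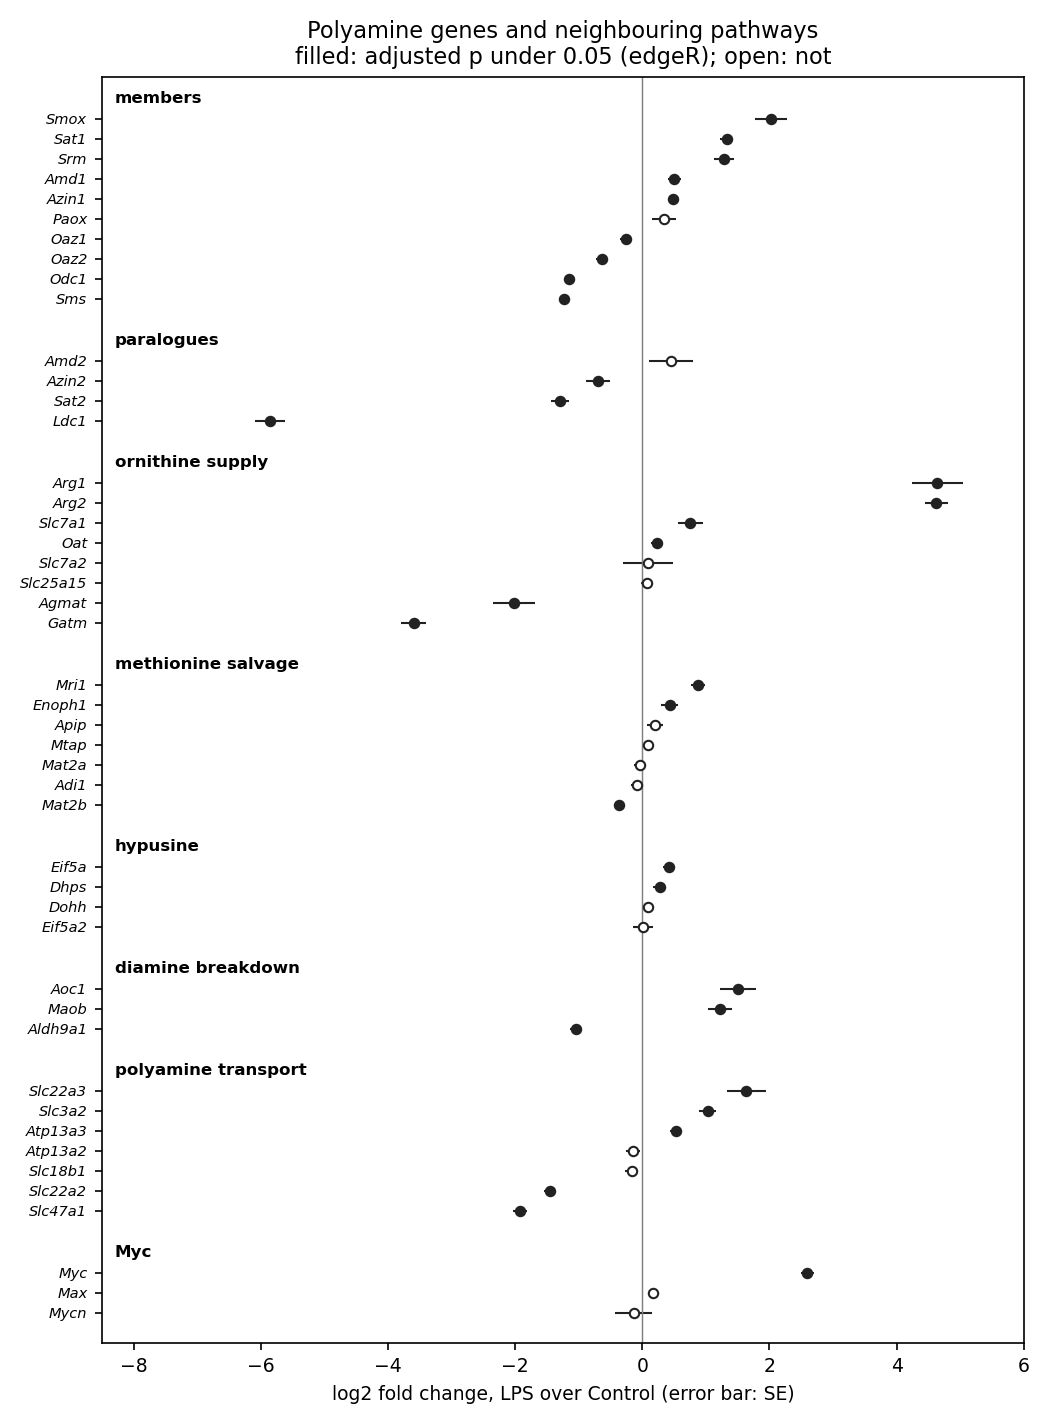
The x axis gives the log2 fold change, LPS over Control, with its SE as the error bar, for the 10 polyamine genes and the tested genes around them, 1 of which is left out, grouped by role; filled points have an adjusted p under 0.05 and open points do not. Arg1 (4.64) and Arg2 (4.63) lie farthest to the right and Ldc1 (-5.86) farthest to the left.

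Markers of the tubule and of blood cells moved in the same libraries. All 13 proximal tubule markers fell, with a median log2 fold change of -1.75. Their summed level went from between 48031 and 52872 CPM in Control to between 14642 and 16037 CPM (counts scaled to a common library total) in LPS libraries. Most of that sum is the 1 gene Kap in both groups. Of 7 markers of other nephron segments 0 rose and 5 fell, with a median of -0.60. Over all genes tested 25.7% were higher and 24.8% lower. Kap, a proximal tubule gene that responds to androgens as Odc1 does, fell by 1.42 (SE 0.08, adjusted p = 2.26e-06). Any part of androgens in the fall of Kap or Odc1 was not tested. Of 9 neutrophil markers 8 were tested and all 8 rose, and their summed level went from between 3.53 and 4.26 to between 72.0 and 103 CPM, with the defining marker Ly6g at 4 counts over the LPS libraries and 2 over the Control libraries. The 10 monocyte and macrophage markers, 4 higher and 3 lower, summed to between 142 and 235 CPM in Control and between 207 and 241 in LPS libraries. The 10 polyamine genes together held between 1924 and 2000 CPM in Control and between 1714 and 1994 in LPS libraries. The part of these cell types in the changes of the polyamine genes was not tested.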

How the data were processed

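RNA of 6 mouse kidneys was measured, 3 LPS and 3 Control, grouped by the sample titles. For every library the authors deposited, by gene symbol, raw counts beside FPKM. Per the submitters' processing notes the tools were R 3.2.0, SAMtools, HTSeq, DESeq2 and HISAT2, listed without roles. Build, annotation and strand setting: not given in the sources used here. All 97605 deposited FPKM values above 0 equalled the count divided by gene length and library total, within a relative tolerance of 1e-05. Library totals were 29097558 to 33454344 counts, and replicates of a group differed by more than sampling noise (chi-square per degree of freedom at least 11.6).

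Counts were tested two-sided with edgeR 4.0.16 in R 4.3.3 (filterByExpr, minimum count 10 and minimum total 15, TMM factors, quasi-likelihood test, Benjamini-Hochberg adjustment over 14219 genes, threshold 0.05). The script was tested on simulated data. The SE is the log2 fold change over the square root of F. Means ± SD are of 3 FPKM values. Alternatives used limma 3.58.1, DESeq2 1.42.0, other scalings and filters, the replicate number as a block, and each library left out. Same-numbered libraries did not deviate together.

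The members and lists were chosen with earlier results of these data known. All members and every tested gene of the pathway lists could be named, and of the marker lists those with the highest counts; Ly6g and Echs1 were named after their values were seen. The values of 1 gene of the transport list are not reported here.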

Additional observations from a re-analysis of the deposited data

How the results depend on the processing

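For 9 of the 10 polyamine genes the direction and the side of the threshold held under every alternative run, and for Oaz1 under 12 of 17. With the replicate block Oaz1 had a log2 fold change of -0.26 and an adjusted p of 0.0629. With 1 library left out its log2 fold change ranged from -0.32 to -0.19. The block also ended the calls of Oat (adjusted p = 0.0850) and Dhps (0.0946) and changed no other call among the 10 genes and the 37 tested around them. Same-numbered libraries did not deviate together (correlations of 0.0478, -0.0535 and -0.00201). With 3 libraries per group these correlations cannot exclude a shared batch, and the replicate numbers come from the sample titles alone. The count of polyamine genes higher was 5 under every alternative and the count lower 3 or 4. Over all genes tested the block gave 3414 higher and 3331 lower, beside 3658 and 3527 without it. Of the genes around the pathway 10 to 14 were higher and 9 or 10 lower. No value of Paox was obtained with a mean FPKM of at least 1, a filter that removed it.

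Genes that did not pass changed sign in some settings. Slc7a2 (0.09) was at -0.059 with limma-voom, -0.052 on log2(FPKM + 0.1) and -0.050 with the replicate block, and between -0.56 and 0.39 with 1 library left out. With 1 library left out, Slc25a15 lay between -0.0011 and 0.12, Mat2a between -0.12 and 0.049, Eif5a2 between -0.089 and 0.16 and Mycn between -0.37 and 0.11. The cause was not tested. The median log2 fold change of all genes moved by less than 0.1 under every scaling. The depth allowed at least 157 counts per library for each of the 10 genes, while Oaz3, Otc, Slc25a2, Mat1a and Atp13a4 were too low to test.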
